A study of Mus musculus with 9 samples.

Results

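Cytochrome c oxidase, complex IV of the respiratory chain, holds several nuclear subunits that exist in more than one tissue-specific form, and 9 genes of these forms were followed here by ribosome footprints during beige fat cell differentiation. They were chosen by symbol: Cox4i1, Cox4i2, Cox6a1, Cox6a2, Cox7a1, Cox7a2, Cox7a2l, Cox8a and Cox8b. Each has 1 line in the table of 55359 genes, and all 9 passed the filter on low counts that left 14714 genes for testing. The cells were mouse preadipocytes isolated from inguinal white adipose tissue, a fat depot under the skin, and grown in culture. At day 0 they had received no treatment. At day 4 and day 8 they had been differentiated for 4 and 8 days, first in a medium with dexamethasone, the phosphodiesterase inhibitor 3-isobutyl-1-methylxanthine, indomethacin, insulin, triiodothyronine and rosiglitazone, and then in medium that lacked dexamethasone, indomethacin and the inhibitor. There were 3 libraries per day and 9 in all, each with 30823028 to 38994892 counts. Strain, sex and age of the mice are not stated, and whether libraries came from separate animals or cultures is unknown here, so each p-value speaks of library-to-library spread alone, which may be technical.

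Complex IV passes electrons from cytochrome c to oxygen and pumps protons across the inner mitochondrial membrane. Its catalytic core is encoded by mitochondrial DNA, and small nuclear subunits surround that core. For COX6A, COX7A and COX8, mice have a widespread form (Cox6a1, Cox7a2, Cox8a) and a form known from heart and skeletal muscle (Cox6a2, Cox7a1, Cox8b), of which Cox7a1 and Cox8b are also widely used as markers of brown fat. Cox4i1 is the widespread form of COX4, while Cox4i2 is best known from lung and from the response to low oxygen rather than from muscle. Cox7a2l is a relative of COX7A that joins complex III to complex IV in supercomplexes.

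The upstream sequences of COX8 and COX7A are shown because their CG content differs between the restricted and the widespread form. These were the pairs whose ratio moved most against day 0. They were also the only pairs with a window for both forms, so a link between CG content and the ratio was not tested. Each line is the 250 bases before the RefSeq gene start in build GRCm38.p6, 5′ to 3′ on the gene's strand, with CG dinucleotides in capitals. The regions are chr7:140900447-140900696 (minus strand) for Cox8b, chr19:7217617-7217866 (minus strand) for Cox8a, chr7:30183921-30184170 (plus strand) for Cox7a1 and chr9:79759854-79760103 (minus strand) for Cox7a2.
Cox8b: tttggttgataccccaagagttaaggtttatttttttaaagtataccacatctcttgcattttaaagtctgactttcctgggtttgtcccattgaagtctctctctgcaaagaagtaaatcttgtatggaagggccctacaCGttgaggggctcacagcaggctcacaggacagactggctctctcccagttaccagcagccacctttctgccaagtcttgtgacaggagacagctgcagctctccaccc
Cox8a: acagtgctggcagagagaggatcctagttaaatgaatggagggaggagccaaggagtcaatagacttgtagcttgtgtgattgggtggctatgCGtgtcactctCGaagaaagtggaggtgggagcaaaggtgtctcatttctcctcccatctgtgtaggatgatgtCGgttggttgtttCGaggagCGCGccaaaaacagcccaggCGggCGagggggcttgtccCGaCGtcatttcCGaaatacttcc
Cox7a1: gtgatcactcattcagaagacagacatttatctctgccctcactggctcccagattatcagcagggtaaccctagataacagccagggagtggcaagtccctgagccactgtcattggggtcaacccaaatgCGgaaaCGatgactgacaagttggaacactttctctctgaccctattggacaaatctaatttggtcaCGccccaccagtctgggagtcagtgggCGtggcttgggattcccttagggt
Cox7a2: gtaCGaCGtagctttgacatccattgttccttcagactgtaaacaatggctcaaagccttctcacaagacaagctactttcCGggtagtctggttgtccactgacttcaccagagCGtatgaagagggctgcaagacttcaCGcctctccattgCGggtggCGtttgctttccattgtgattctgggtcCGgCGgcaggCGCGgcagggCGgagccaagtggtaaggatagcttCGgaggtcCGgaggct

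The Cox8b window held 1 CG dinucleotide and the Cox7a1 window 4, against 11 in Cox8a and 14 in Cox7a2. The Cox6a1 and Cox7a2l windows held 26 and 13. Over 32851 mouse promoter windows of the same length the median was 6 (quartiles 2 and 16), so both restricted forms lay below the median, while Cox6a1, Cox7a2, Cox8a and Cox7a2l lay above it. GC content ranged only from 47.2% in Cox8b to 62.8% in Cox6a1. The reference table covered 6 of the 9 genes, and Cox4i1, Cox4i2 and Cox6a2 have no entry in it.

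Short motifs were searched on both strands of these 6 windows. A core of the NRF-1 motif, GCGCA and GCGC with any base between them, had 2 matches in Cox6a1, at 162 to 153 and 117 to 108 bases before the start (present in 3.74% of all windows). CTTCCGG, an ETS motif, had 1 match in Cox6a1, at 16 to 10 bases before the start (6.91% of windows). CAGCTG, an E-box, had 1 match in Cox8b, at 19 to 14 bases before the start (13.0% of windows). TNAAGGTCA (the motif of the estrogen-related receptors, 1.14% of windows), a pair of AGGTCA copies with any base between them (the motif of PPAR with RXR, 0.0335%) and TATAAA (12.4%) had no match in these windows.

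Before the results, 2 libraries need naming. At day 4, replicate 2 held the lowest level of 8 of the 9 genes, and at day 8, replicate 3 held the lowest level of 8 of 9. The same libraries had the lowest Ucp1, the heat-producing proton carrier, of their day: 3.41 CPM in day 4 replicate 2 against 16.7 and 7.47 CPM in replicates 1 and 3, and 129.5 CPM in day 8 replicate 3 against 292.6 and 327.6 CPM in replicates 1 and 2. CPM are counts scaled to a common library size after TMM normalization. Summed fat cell markers were at 31680 CPM in day 4 replicate 2, against 47463 and 49349 CPM in replicates 1 and 3, and summed preadipocyte markers at 1810 CPM, against 801.2 and 914.2 CPM. Day 8 replicate 3 also had the highest preadipocyte sum of its day, at 721.0 CPM against 527.1 and 536.5 CPM. Its fat cell sum was the lowest, at 47570 CPM against 50877 and 48811 CPM. Adipoq, one of the fat cell markers, was instead highest there. Its log2 level over the day 0 mean was 7.70, against 7.66 and 7.44 in replicates 1 and 2. The part of these differences in the isoform levels was not tested. Values without both libraries are given where they matter, a choice made with earlier results of these data known.

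Summed preadipocyte markers (6 genes) were at 2398 to 2544 CPM at day 0, 801.2 to 1810 at day 4 and 527.1 to 721.0 at day 8. The genes of this list did not all fall. At day 4 against day 0, 3 were called higher and 2 lower (29.8% and 28.4% of all tested genes). At day 8 against day 0, 0 were called higher and 2 lower (34.2% and 33.5%). Summed fat cell markers (5 genes) were at 195.0 to 252.6, 31680 to 49349 and 47570 to 50877 CPM on the 3 days. All 4 that were tested were called higher at both later days against day 0 (29.8% and 34.2% of all tested genes). At day 8 against day 4, 0 were called higher and 2 lower (14.7% and 17.1%). Summed beige or brown fat markers (6 genes) stood at 3.12 to 3.72, 170.5 to 288.3 and 801.3 to 1388 CPM. Cox6a2, Cox7a1 and Cox8b are muscle genes elsewhere, so muscle markers were read too. Of 10 skeletal muscle markers only Acta1 and Mylpf passed the filter, Pax7 had 0 counts in all libraries, and Ckm had at most 1 count per library. Their sum was 45.6 to 56.8 CPM at day 0, 2.54 to 6.80 at day 4 and 6.90 to 8.82 at day 8, nearly all of it Acta1, and without Acta1 it was 1.07 to 1.21, 0.436 to 1.13 and 0.728 to 1.17 CPM. Acta1 was called lower at both later days than at day 0, and higher at day 8 against day 4 (1.00 on the log2 scale, adjusted p = 0.0442 by edgeR). No cardiac marker of 4 passed the filter, Myh6 was at 0 throughout, and their sum never exceeded 0.248 CPM. Smooth muscle and pericyte markers (4 genes) summed to 2742 to 4288 CPM at day 0, 54.8 to 277.3 at day 4 and 140.5 to 274.4 at day 8. Macrophage markers (4 genes) summed to 33.1 to 75.6, 27.6 to 41.2 and 5.30 to 28.4 CPM, and endothelial markers (3 genes) to 4.45 to 6.82, 1.89 to 5.78 and 1.90 to 2.94 CPM. In these cultures fewer cells of a type and less RNA per cell cannot be told apart, and since RNA levels were not analysed here, footprints combine mRNA amount with ribosome load.

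Cox8b, the muscle and brown fat form of the smallest subunit, changed most of the 9 genes against day 0. At day 0 its libraries held 0.365, 0.433 and 0.221 CPM, from 12, 14 and 8 counts. At day 4 they held 48.2, 15.5 and 29.2 CPM, and at day 8 142.3, 174.7 and 85.8 CPM. All libraries of each day lay above all libraries of the day before. Relative to day 0, day 4 was 91.1-fold higher (log2 fold change 6.51 ± 0.55 SE, adjusted p = 7.72e-06 by edgeR's quasi-likelihood test with Benjamini-Hochberg adjustment over all tested genes) and day 8 was 395.0-fold higher (8.63 ± 0.57, adjusted p = 1.62e-06). The change from day 0 to day 8 ranked at place 18 of 14714 tested genes, counted from the highest log2 fold change. Between day 8 and day 4 it was 4.34-fold (2.12 ± 0.38, adjusted p = 0.00350).

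Cox8a, its widespread partner, moved the same way over a smaller range. It stood at 192.2, 213.9 and 192.9 CPM at day 0, at 1035, 550.1 and 902.3 CPM at day 4 and at 1414, 1474 and 1075 CPM at day 8. The days did not overlap, and the fold was 4.15 at day 4 and 6.62 at day 8 against day 0 (2.05 ± 0.23 and 2.73 ± 0.24, adjusted p = 4.92e-05 and 7.62e-06). Day 8 was 1.59-fold above day 4 (0.67 ± 0.22, adjusted p = 0.0434).

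Cox7a1, the muscle and brown fat form of COX7A, followed Cox8b. Its libraries held 2.47, 3.10 and 1.93 CPM at day 0, 188.1, 42.4 and 146.9 CPM at day 4, and 476.1, 504.3 and 348.7 CPM at day 8. Day 4 replicate 2 was far below the other libraries of its day but still above every day 0 library. The gene was 50.4-fold higher at day 4 and 177.6-fold higher at day 8 than at day 0 (5.66 ± 0.53 and 7.47 ± 0.57, adjusted p = 1.59e-05 and 3.66e-06), with place 98 of 14714 for the second. Day 8 was 3.52-fold above day 4 (1.82 ± 0.43, adjusted p = 0.0123).

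Cox7a2, the widespread COX7A, was at 89.3, 91.8 and 91.2 CPM at day 0, 418.0, 293.7 and 435.8 CPM at day 4 and 613.6, 574.5 and 473.7 CPM at day 8. The days again did not overlap. The fold was 4.21 at day 4 and 6.10 at day 8 against day 0 (2.08 ± 0.17 and 2.61 ± 0.17, adjusted p = 6.13e-06 and 1.61e-06), and 1.45 between day 8 and day 4 (0.53 ± 0.16, adjusted p = 0.0315). Its RefSeq gene overlaps Tmem30a, a lipid flippase subunit, and Gm51685. Tmem30a stood at 87.1, 105.3 and 127.8 CPM as day means, and the share of reads counted for one gene or the other was not tested.

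Cox4i2 was called higher at both later days, with 1 day 4 library hardly above day 0. It held 1.58, 0.959 and 1.30 CPM at day 0, and 12.0, 1.60 and 10.0 CPM at day 4, so day 4 replicate 2 lay barely above the highest day 0 library. At day 8 it held 26.9, 25.7 and 32.9 CPM, and its highest library was replicate 3, the one in which the other 8 genes were lowest. The gene was 6.12-fold higher at day 4 and 22.2-fold higher at day 8 than at day 0 (2.61 ± 0.59 and 4.47 ± 0.61, adjusted p = 0.00386 and 0.000132), and 3.62-fold higher at day 8 than at day 4 (1.86 ± 0.53, adjusted p = 0.0242). Without day 4 replicate 2 the last value was 1.37 (adjusted p = 0.000422), and without day 8 replicate 3 as well it was 1.26 (adjusted p = 0.000164). Its RefSeq gene overlaps Gm32057 and Bcl2l1, a survival gene that stood at 41.1, 36.5 and 27.1 CPM as day means.

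Cox4i1, the widespread COX4, stood at 298.2, 299.9 and 275.6 CPM at day 0, at 1634, 1005 and 1605 CPM at day 4 and at 1918, 1920 and 1621 CPM at day 8. Every day 4 and day 8 library was above day 0, while day 8 replicate 3 fell within the range of day 4. The fold against day 0 was 4.86 at day 4 and 6.25 at day 8 (2.28 ± 0.20 and 2.64 ± 0.20, adjusted p = 9.26e-06 and 3.40e-06). The later step had a log2 fold change of 0.36 ± 0.19 and did not pass the test (adjusted p = 0.166).

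Cox6a2, the heart and skeletal muscle form of COX6A, was the only one of the 9 that was not higher at day 4. Its libraries held 3.11, 2.63 and 3.01 CPM at day 0 and 3.75, 1.49 and 2.76 CPM at day 4, which overlap. At day 8 they held 25.4, 27.2 and 20.8 CPM, all far above both earlier days. The log2 fold change at day 4 against day 0 was -0.13 ± 0.28 (adjusted p = 0.708), and 0.16 without day 4 replicate 2 (adjusted p = 0.470). At day 8 the gene was 8.38-fold above day 0 and 9.18-fold above day 4 (3.07 ± 0.28 and 3.20 ± 0.28, adjusted p = 1.06e-05 and 0.000173), and the second change ranked at place 66 of 14714 genes.

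The RefSeq gene of Cox6a2 overlaps Itgad, an integrin gene of leukocytes, and the strand setting of the counts is not given in the sources used here, so its counts are less certain. Itgad was at 0.487, 0.495 and 0.607 CPM at day 0, 60.3, 52.5 and 20.8 CPM at day 4 and 196.1, 188.8 and 159.8 CPM at day 8. It was already 83.2-fold higher at day 4 than at day 0 (6.38 ± 0.43, adjusted p = 1.97e-06), at a time when Cox6a2 was not higher. Summed macrophage markers were at 33.1 to 75.6 CPM at day 0, 27.6 to 41.2 at day 4 and 5.30 to 28.4 at day 8. Which cells the Itgad footprints came from was not tested. Whether reads of Itgad were counted for Cox6a2, or the reverse, was not tested either.

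Cox6a1, the widespread COX6A, stood at 146.5, 153.2 and 128.6 CPM at day 0, at 797.5, 468.8 and 719.0 CPM at day 4 and at 1138, 1284 and 839.3 CPM at day 8, with no overlap between days. The fold was 4.64 at day 4 and 7.61 at day 8 against day 0 (2.21 ± 0.23 and 2.93 ± 0.23, adjusted p = 2.66e-05 and 4.56e-06) and 1.64 between day 8 and day 4 (0.72 ± 0.22, adjusted p = 0.0313).

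Cox7a2l, the supercomplex factor, changed least of the 9 against day 0 at day 8. It held 6.58, 6.87 and 5.91 CPM at day 0, 15.6, 16.0 and 18.7 CPM at day 4 and 20.3, 17.2 and 16.9 CPM at day 8. Day 4 replicate 2 did not stand low for this gene. The fold against day 0 was 2.60 at day 4 and 2.81 at day 8 (1.38 ± 0.13 and 1.49 ± 0.13, adjusted p = 1.70e-05 and 8.48e-06), and days 8 and 4 overlapped (0.11 ± 0.13, adjusted p = 0.531).

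**Figure D1:**
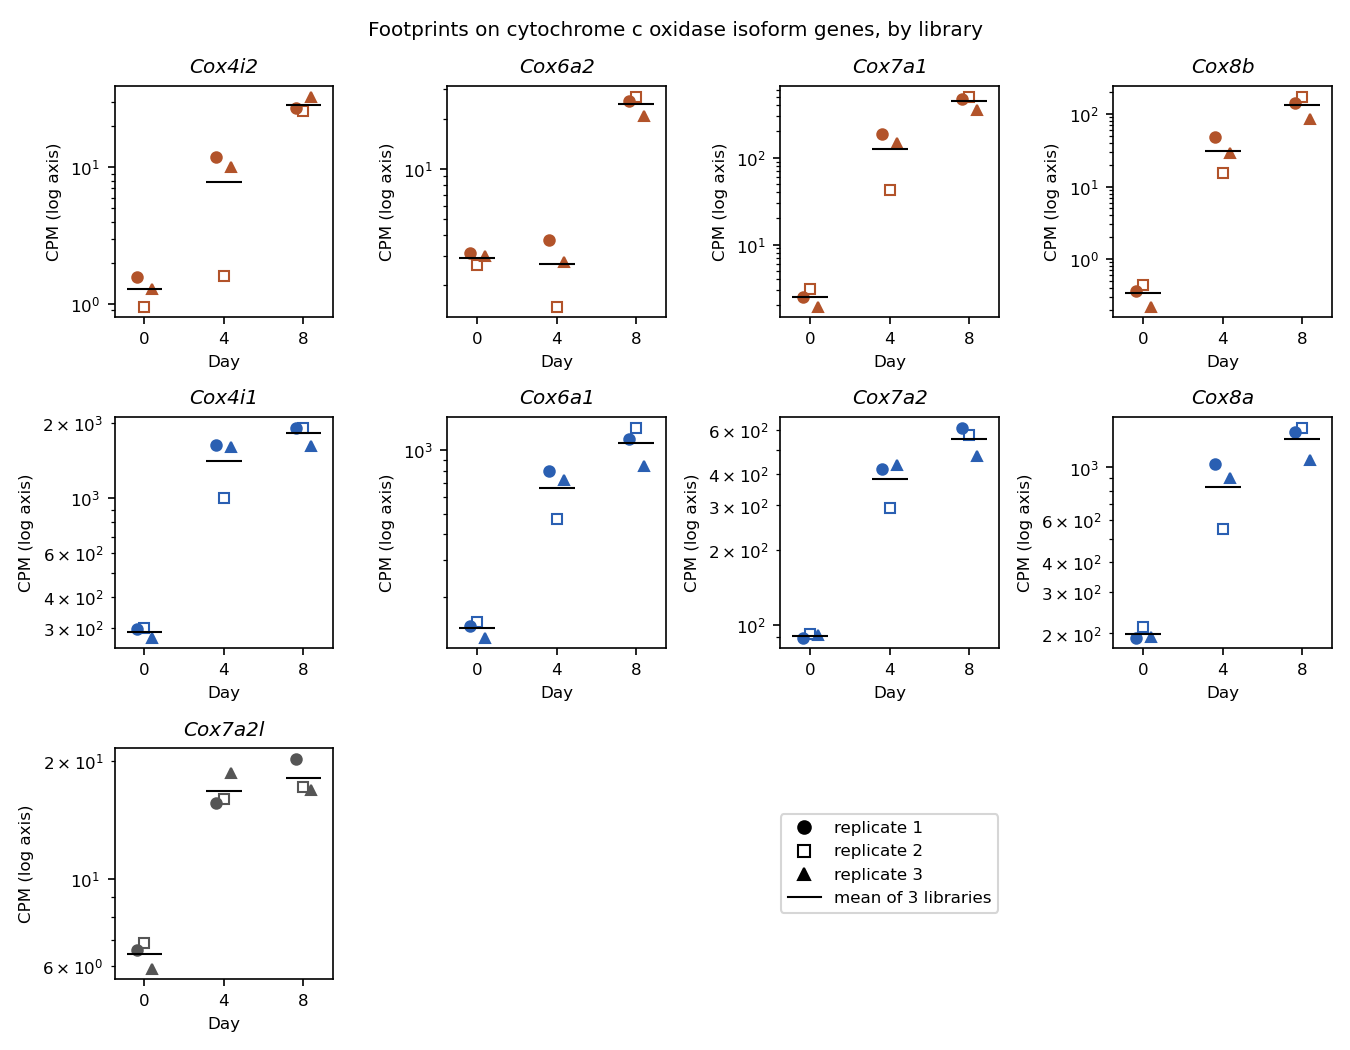
Footprint level of each gene in every library, as CPM on a log axis (each panel with its own range) against day; the points are libraries (circle, open square and triangle for replicates 1, 2 and 3) and the line is the mean of 3. Restricted forms are in orange, widespread forms in blue and Cox7a2l in grey. Cox6a2 is flat between days 0 and 4, at 2.92 and 2.67 CPM, and reaches 24.5 CPM at day 8, while the other 8 genes are already above day 0 at day 4.

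Against day 0, edgeR called 8 of the 9 genes higher at day 4 and 0 lower, where 58.2% of all tested genes were called, 29.8% higher and 28.4% lower. At day 8 all 9 were called higher, where 67.7% of all tested genes were called, 34.2% higher and 33.5% lower. Between day 8 and day 4 it called 7 higher and 0 lower, where 31.8% of all tested genes were called, 14.7% higher and 17.1% lower, and Cox4i1 and Cox7a2l did not pass. With library totals as scaling, 3273 genes were called higher and 1695 lower in this comparison, against 2159 and 2517 with TMM, and 3722 higher and 5167 lower at day 4 against day 0, where TMM gave 4387 and 4176. The calls of the 9 genes were 8, 9 and 7 higher under both scalings. The median log2 fold change of the 9 was 2.21, 2.93 and 0.72 in these comparisons, beside -0.02, -0.01 and -0.02 over all tested genes. Both comparisons against day 0 share the day 0 libraries. Without day 4 replicate 2 and day 8 replicate 3 the same 8, 9 and 7 genes were called.

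The later step was the least certain. Only Cox6a2, Cox7a1 and Cox8b passed the test between day 8 and day 4 under every alternative tried. Cox4i2 was not called without day 8 replicate 1, 2 or 3 (adjusted p = 0.0601, 0.0550 and 0.0527). Cox6a1 was not called without day 0 replicate 1, day 4 replicate 3, or day 8 replicate 1 or 2 (adjusted p = 0.0512, 0.0557, 0.0945 and 0.119). Cox7a2 was not called without day 0 replicate 1, 2 or 3 or day 8 replicate 1 or 2 (adjusted p = 0.0520, 0.0509, 0.0502, 0.117 and 0.0967). Cox8a was not called without the same 5 libraries (adjusted p = 0.0670, 0.0641, 0.0652, 0.126 and 0.137) or without day 4 replicate 3 (adjusted p = 0.0698). The log2 fold change ran from 1.26 to 2.31 for Cox4i2, from 0.52 to 0.87 for Cox6a1, from 0.37 to 0.68 for Cox7a2 and from 0.45 to 0.86 for Cox8a across the alternatives.

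**Figure D2:**
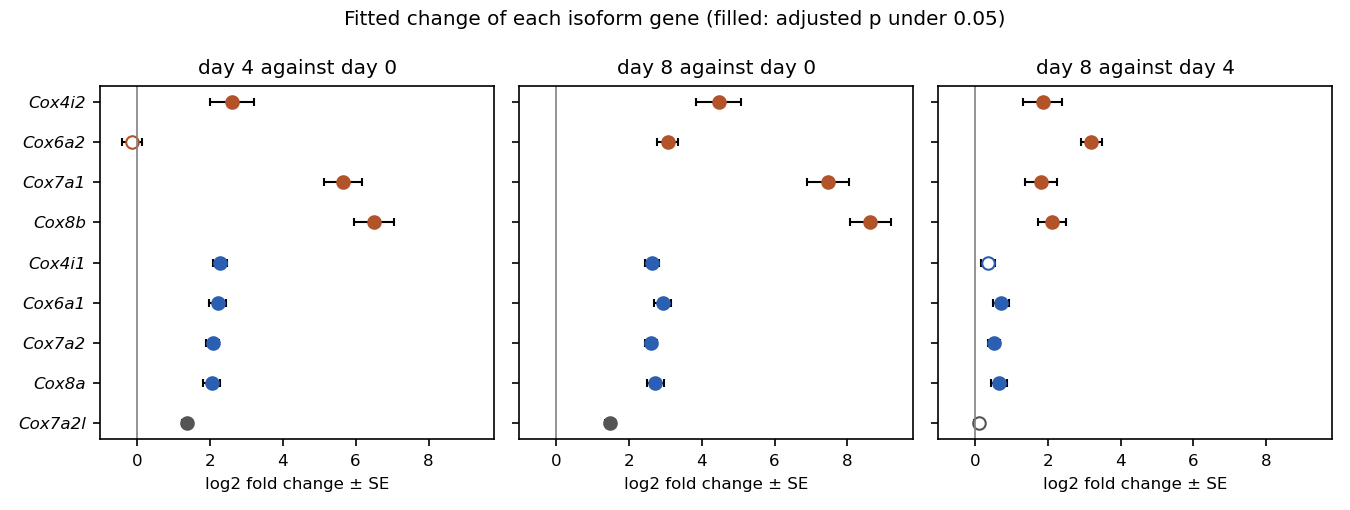
Fitted log2 fold change (horizontal axis) with its standard error for each gene in the 3 comparisons, coloured as in the plot of levels; filled points passed an adjusted p under 0.05. The 4 widespread forms lie close together, at 2.05 to 2.28 for day 4 and 2.61 to 2.93 for day 8 against day 0, while the restricted forms spread from -0.13 to 6.51 and from 3.07 to 8.63.

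The ratio of counts between the 2 forms of a subunit shows how the mix of isoforms shifted, and scaling of library size cancels in it. Coding lengths were not used, so a ratio is compared between days and not read as a ratio of molecules. The log2 ratio (pseudocount 0.5 count) was tested across the 3 days with an exact permutation test on the sum of squares between days (1680 arrangements, smallest possible p = 0.00357), for 4 ratios in all. For a pair of days 3 libraries against 3 cannot give an exact two-sided p below 0.10.

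Cox8b relative to Cox8a was 0.190%, 0.203% and 0.114% at day 0, 4.66%, 2.81% and 3.23% at day 4 and 10.1%, 11.9% and 7.98% at day 8. The days did not overlap (exact permutation p = 0.00357 over 3 days, 0.00714 adjusted over the 4 ratios). The ratio was 20.3-fold higher at day 4 and 57.3-fold higher at day 8 than at day 0 (4.35 ± 0.33 and 5.84 ± 0.30 SE on the log2 scale, n = 3 each, exact p = 0.1 for each, the smallest possible).

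Cox7a1 relative to Cox7a2 was 2.76%, 3.37% and 2.12% at day 0, 45.0%, 14.4% and 33.7% at day 4 and 77.6%, 87.8% and 73.6% at day 8. No day overlapped another here either (exact permutation p = 0.00357, 0.00714 adjusted). The ratio was 10.3-fold above day 0 at day 4 and 29.2-fold at day 8 (3.36 ± 0.53 and 4.87 ± 0.21). As a share of both genes' counts, Cox7a1 held 44.3% ± 2.23 at day 8, against 2.67% ± 0.594 at day 0 (SD, n = 3).

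Cox4i2 relative to Cox4i1 was 0.531%, 0.320% and 0.471% at day 0, 0.731%, 0.159% and 0.626% at day 4 and 1.40%, 1.34% and 2.03% at day 8. Days 0 and 4 overlapped, with a log2 change of -0.06 ± 0.73 (exact p = 1), and of 0.64 without day 4 replicate 2. Without that library the remaining day 4 values, 0.731% and 0.626%, lay above all of day 0, so the overlap rests on 1 library. Day 8 was 3.73-fold above day 4 and 3.58-fold above day 0 (1.90 ± 0.72 and 1.84 ± 0.29), with no overlap, and the first change was 1.20 without day 4 replicate 2. Over the 3 days the exact permutation p was 0.0393 (0.0393 adjusted). It was 0.0857 without day 0 replicate 1, day 0 replicate 3 or day 8 replicate 1, 0.0821 without day 8 replicate 2 and 0.150 without day 8 replicate 3.

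Cox6a2 relative to Cox6a1 dipped and returned. It was 2.12%, 1.72% and 2.34% at day 0, 0.470%, 0.317% and 0.384% at day 4 and 2.23%, 2.12% and 2.48% at day 8. All day 4 libraries were below all others, and days 0 and 8 overlapped. The ratio was 5.29-fold lower at day 4 than at day 0 (-2.40 ± 0.21 on the log2 scale) and 5.86-fold higher at day 8 than at day 4 (2.55 ± 0.17), with a difference of 0.15 ± 0.15 between day 8 and day 0 (exact p = 0.5). Over the 3 days the exact permutation p was 0.0179 (0.0238 adjusted), and 0.0857 without day 4 replicate 2 and day 8 replicate 3, where 7 libraries remained. At day 4 against day 0 Cox6a1 was called higher and Cox6a2 was not called.

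**Figure D3:**
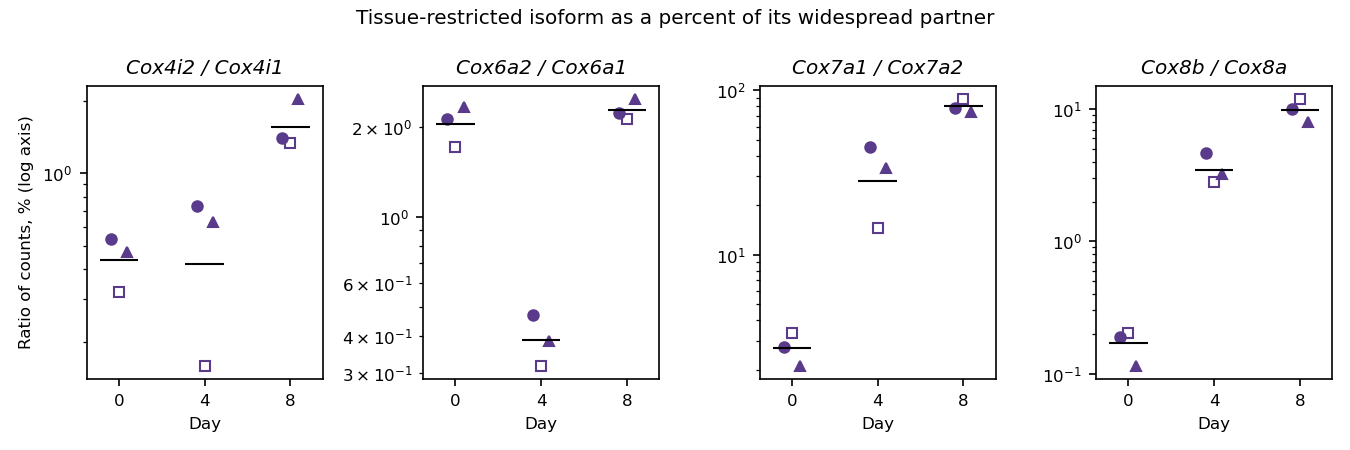
Counts of each restricted form as a percent of those of its widespread partner, per library (circle, open square and triangle for replicates 1, 2 and 3) on a log axis against day; the line is the geometric mean of 3 libraries. Cox8b and Cox7a1 climb at both steps, Cox4i2 is above its earlier values at day 8, and Cox6a2 falls to 0.391% on average at day 4 and is back at 2.28% at day 8.

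Adding both forms of a subunit changed the size of the rise little for COX8, COX4 and COX6A. The summed COX8 counts changed by 2.86 on the log2 scale between day 8 and day 0, against 2.73 for Cox8a alone (ratio of mean CPM). For COX4 the values were 2.66 and 2.64, and for COX6A 2.93 with and without the restricted form. The COX7A sum was the exception, at 3.42 against 2.61 for Cox7a2 alone. The summed COX7A level was 93.3 ± 1.60 CPM at day 0, 508.3 ± 149.5 CPM at day 4 and 997.0 ± 151.3 CPM at day 8 (SD, n = 3).

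On the linear CPM scale, the widespread forms had covered more of their rise to day 8 at day 4 than the restricted forms. Of the increase from the day 0 mean to the day 8 mean, Cox4i1 had reached 73.5% ± 23.2 at day 4, Cox7a2 63.0% ± 16.7, Cox8a 56.1% ± 22.3 and Cox6a1 55.0% ± 18.2 (SD over the 3 day 4 libraries). Cox7a2l had reached 88.5% ± 14.2. The restricted forms had reached 28.0% ± 17.0 (Cox7a1), 24.2% ± 20.3 (Cox4i2), 22.9% ± 12.3 (Cox8b) and -1.15% ± 5.27 (Cox6a2). Over the alternatives the widespread forms ran from 47.0% to 86.9% and the restricted forms from -3.67% to 38.9%. Within day 4 the libraries varied widely, and Cox4i2 had reached 39.2%, 1.16% and 32.2% in replicates 1, 2 and 3. The order depends on the scale for Cox8b and Cox7a1. On the log2 scale they had risen by 6.51 of 8.63 and 5.66 of 7.47 at day 4. Cox8a had risen by 2.05 of 2.73, Cox6a1 by 2.21 of 2.93, Cox7a2 by 2.08 of 2.61 and Cox4i1 by 2.28 of 2.64. Cox4i2 (2.61 of 4.47) and Cox6a2 (-0.13 of 3.07) were behind on this scale too. No test was made of this share.

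**Figure D4:**
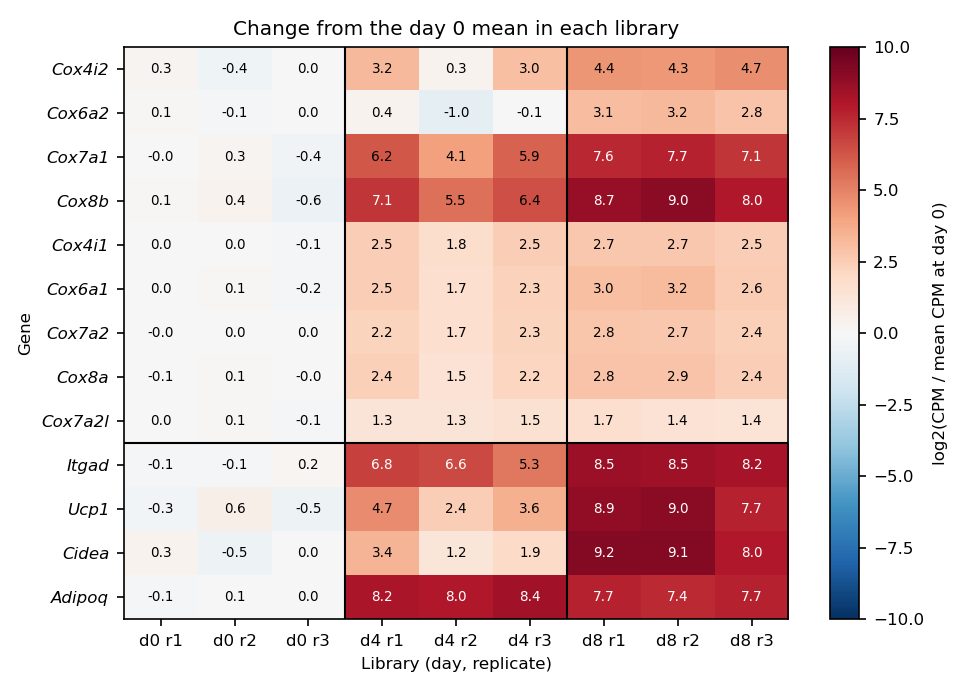
Log2 of the CPM in each library (columns, by day and replicate) over the gene's day 0 mean, with the value printed in each cell; the lower rows give Itgad, which overlaps Cox6a2, and 3 fat cell markers. Day 4 replicate 2 is the palest column of its day for Cox4i2 (0.32), Cox7a1 (4.09) and Cox8b (5.51), and Adipoq, the adiponectin gene, is at 7.99 there, beside 8.17 and 8.39.

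The genes most like each restricted form were taken by Pearson correlation of log2 CPM over the 9 libraries. They were ranked among 8269 tested genes with a mean of at least 10 CPM. Genes named Gm with digits, ending in Rik or holding -ps had been left out of these. These coefficients describe 3 groups of libraries that share culture day, so no p is given. Nearest to Cox7a1 were Ndufb8 (a complex I subunit), Mrpl4 (a mitochondrial ribosomal protein), Afg1l, Hagh and Hint2, all with r = 0.998 or 0.999. Nearest to Cox8b were Hadhb (a fatty acid oxidation enzyme) and Afg1l (r = 0.998 each), then Cox6a1, Tex2 and Hagh (0.997 each). Cox7a1 and Cox8b correlated at 0.997, and Cox7a1 was at 0.998 with the widespread Cox8a. Their own partners were close too, with Cox7a1 and Cox7a2 at 0.994 and Cox8b and Cox8a at 0.994. For Cox4i2 the nearest were Vapa (0.995), Cyp2u1 (0.993), Rfxank (0.991), Vps37a (0.991) and Rfesd (0.990), with Cox4i1 at 0.892. For Cox6a2 they were Trnau1ap (0.992), Nupr1 (0.991), Gstm4 (0.990), Adssl1 (0.990) and Mocos (0.989), while Cox6a1 was at 0.659. As a description of what this choice picks, Adssl1, the muscle form of adenylosuccinate synthase, was at 2.89, 3.29 and 24.6 CPM as day means. It passed the limit of 10 CPM through day 8 alone, and its likeness to Cox6a2 was the reason for its choice.

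The rest of complex IV gives the frame. Of 13 other subunit genes 11 were tested, and the testis forms Cox7b2 and Cox8c each had 1 count in all. At day 4, 10 of the 11 were called higher against day 0 (29.8% of all tested genes), with a median log2 fold change of 1.70 (all tested genes -0.02). The gene mt-Co3 was not called (0.39 ± 0.15, adjusted p = 0.0535). It had 0.46 without day 4 replicate 2 (adjusted p = 0.0283) and 0.40 without day 8 replicate 3 (adjusted p = 0.0415). Cox7b, Cox6b1 and Ndufa4 changed by 2.25 ± 0.17, 2.19 ± 0.17 and 1.63 ± 0.11. At day 8 all 11 were called higher than day 0 (34.2% of all tested genes), with a median of 2.22. Cox7b and Cox5a stood at 2.78 ± 0.18 and 2.74 ± 0.19, and Ndufa4 at 1.61 ± 0.11. Between day 8 and day 4, 5 were called higher and 1 lower (14.7% and 17.1% of all tested genes), with a median of 0.53. Without day 8 replicate 1, 2 were called. The catalytic mitochondrial subunits mt-Co1 and mt-Co2 were called higher (0.95 ± 0.16 and 0.98 ± 0.20), as was Cox5b (0.92 ± 0.23). The testis form Cox6b2 was lower by -0.58 ± 0.18 (adjusted p = 0.0327), a call lost without day 0 replicate 3, day 4 replicate 1 or 3, or day 8 replicate 1 or 3 (adjusted p = 0.0506, 0.0641, 0.0718, 0.10 and 0.0859). The call of Cox5b was lost without day 8 replicate 1 (adjusted p = 0.0528).

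Among 26 assembly genes of complex IV 25 were tested. At day 4, 24 were called higher than day 0 (29.8% of all tested genes) with a median of 1.12. The copper chaperone Cox17 was not (-0.30 ± 0.32, adjusted p = 0.446). Cox19, Cox10 (a heme synthesis enzyme) and Sco1 (a copper carrier) changed by 2.03 ± 0.11, 2.33 ± 0.16 and 1.37 ± 0.11. At day 8, 24 were called higher than day 0 (34.2% of all tested genes) with a median of 1.32. Cox10 was at 2.31 ± 0.16, Taco1 (which helps translate mt-Co1) at 2.70 ± 0.19 and Cox19 at 1.46 ± 0.11. Between day 8 and day 4, 6 were higher and 3 lower, with a median of 0.11, near the 31.8% called among all tested genes, and 3 in all were called without day 8 replicate 1. The lower ones were Cox19, Sco2 and Cox16 (-0.56 ± 0.11, -0.70 ± 0.15 and -0.46 ± 0.14), and Coa8 was among the higher (0.58 ± 0.12). Cox16 was not called without day 4 replicate 1 or 3 or day 8 replicate 1, 2 or 3 (adjusted p = 0.0778, 0.0954, 0.0553, 0.0995 and 0.0672).

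A set of 6 regulators of mitochondrial and fat cell genes was read beside them. At day 4, 5 of the 6 (Ppargc1a, Ppargc1b, Esrra, Ppara and Pparg) were called higher than day 0 (29.8% of all tested genes). At day 8 all 6 were (34.2% of all tested genes). Esrrg, an estrogen-related receptor, was the one that was not called at day 4 (0.46, adjusted p = 0.544), and it was called at day 8 (2.33 ± 0.56, adjusted p = 0.00425) from 0.222 CPM at day 0, 0.304 at day 4 and 1.12 at day 8. Between day 8 and day 4, 3 of the 6 (Ppara, Esrrg and Ppargc1a) were called higher and 0 lower (14.7% and 17.1% of all tested genes). Esrrg had 1.87 there (adjusted p = 0.0255), and was not called without day 8 replicate 1 or 2 (adjusted p = 0.0787 and 0.0688). Ppara changed by 5.65 at day 4 and 7.57 at day 8, and Ppargc1a by 5.87 and 6.65. Their part in the levels of the oxidase genes was not tested.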

How the data were processed

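Ribosome footprints were sequenced from 9 libraries. The deposited values are raw counts, with a column for each library and a line for each gene. The submitters' processing notes name cutadapt, HISAT2, featureCounts and the build GRCm39, with strand setting, counted feature and multi-mapping not given in the sources used here. No column was left unused. Groups came from the labels. Genes were filtered with filterByExpr (minimum count 10), TMM-scaled and put through edgeR 4.0.16 (R 4.3.3; quasi-likelihood F test), day being the sole factor and the spread estimated from all 9 libraries, with Benjamini-Hochberg adjustment over 14714 genes (called under 0.05). SE derives from the F statistic. Replicate pairs of a day differed by 15.7 to 255.8 chi-square units per degree of freedom, so none is a duplicate. Totals of 30823028 to 38994892 counts limit precision mainly for genes with few counts.

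Named genes were all 9 isoforms, 6 regulators and Ucp1, Cidea and Adipoq. Also named were the 5 genes most correlated with each restricted form among the 8269 ranked genes. From both complex IV lists came up to 3 called genes per comparison and those called lower. The members, lists, motifs and libraries left out together were chosen with earlier results of these data known. Alternatives changed scaling, filter, test (DESeq2 1.42.0, limma-voom with limma 3.58.1), libraries, replicate block, pseudocount and each library in turn. In data simulated with 200 changed genes, 68% to 75% of genes changed 2-fold against day 0 were recovered, and 63% between day 8 and day 4. Far larger shares of genes were called in the real comparisons (58.2%, 67.7% and 31.8%). The adjustment was therefore stricter in the simulation, and these rates do not give the recovery in the real tests. Promoter windows came from RefSeq and gene overlaps from its GRCm38.p6 table, whose coordinates were matched by symbol for all 9 genes.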

Additional observations from a re-analysis of the deposited data

How the results depend on the processing

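Of 513 recomputed fold changes of the 9 genes, 486 kept direction and call, 25 lost the call and 2 changed sign, both for Cox6a2 at day 4 against day 0, which was not called (0.16 without day 4 replicate 2, and 0.16 without that library and day 8 replicate 3; the range without 1 library was -0.45 to 0.16). All 25 lost calls concerned Cox4i2, Cox6a1, Cox7a2 or Cox8a between day 8 and day 4. That comparison called 7 of the 9 genes, 3 when only its own 2 days were fitted, 4 with a replicate block, and 3 to 7 without 1 library. Without 1 library, other subunits called there ran from 2 to 7 (6 in the full set), assembly genes from 3 to 9 (9) and all genes from 2706 to 4899 (4676). DESeq2 called 8 other subunits and 5301 genes, and scaling by library totals 10 assembly genes and 4968 genes. Without both day 4 replicate 2 and day 8 replicate 3 there were 10 assembly genes and 5481 genes. The ratio of Cox4i2 to Cox4i1 changed by 1.84 on the log2 scale between day 8 and day 0, and by 1.63 to 1.99 without 1 library (exact permutation p over 3 days 0.00714 to 0.150). With a replicate block its value is the same 1.84, with an exact permutation p = 0.111. The ratio of Cox6a2 to Cox6a1 changed by 0.09 without day 4 replicate 2 and day 8 replicate 3 (exact permutation p = 0.0857), and by 0.022 to 0.24 without 1 library. Deviations from the day mean correlated at r from -0.20 to 0.19 between same-numbered libraries of different days, over 0.1 in 2 of 9 pairs. Between differently numbered libraries r ran from -0.30 to 0.31, both ends with day 8 replicate 3. For days 0 and 8 the same-numbered values were 0.12, 0.071 and 0.085, and the differently numbered ones were all negative. Such small values over 3 libraries a day cannot settle whether the numbers mark pairs. The main fit did not take them as pairs, and the block changed no call of the 9 genes against day 0. Scaling by library totals moved the median of all genes to -0.17 at day 4 against day 0 and to 0.12 at day 8 against day 4 (-0.02 in both with TMM), and called the same number of the 9 genes. Cox8b at day 0 rests on 34 counts over 3 libraries.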
